A study of Mus musculus with 2 samples.

Results

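The Pax transcription factors were followed through a chimaera in which Gata1-mutant and wild-type cells built the same mouse embryos. The 8 family members with a column in the spliced and unspliced count matrices, Pax1, Pax2, Pax3, Pax5, Pax6, Pax7, Pax8 and Pax9, were taken by name from 29453 genes. The rule used none of their values, although the members were chosen with earlier results of these data known. Pax4, the remaining gene of the family, had 1 spliced UMI (unique molecular identifier, the tag that counts captured RNA molecules) in all and is not a member. The series held 2 single-cell RNA-seq libraries, 1 per fraction. The tdTom+ fraction held descendants of 1 male embryonic stem cell clone that carried a tdTomato reporter and a 38 bp frameshift in exon 4 of Gata1, an X-linked gene for a transcription factor of red cells and megakaryocytes. The tdTom- fraction held the wild-type C57BL/6 host cells of the same embryos. The stem cells had been injected into E3.5 blastocysts, and 6 chimaeras were pooled before flow sorting. The labels give embryonic day 8.5 for the tdTom+ library and 8.6 for the tdTom- library, although both came out of the same pool. Sorted fraction, stem cell clone, genetic background and library therefore cannot be told apart, and no test between the fractions was possible. Every fold below compares 2 libraries, and its interval covers counting error only.

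Pax proteins bind DNA through the paired domain and fall into paralogue groups that share further domains and much of their expression. Pax2, Pax5 and Pax8 carry an octapeptide and a partial homeodomain and are known for roles at the midbrain-hindbrain boundary and in the eye, ear, kidney and thyroid. Pax3 and Pax7 carry an octapeptide and a full homeodomain and mark the dorsal neural tube, the neural crest and the dermomyotome. Pax6, with Pax4, carries a full homeodomain without the octapeptide and is known for the eye, the forebrain and the ventral neural tube. Pax1 and Pax9 lack a homeodomain and are known for the sclerotome and the pharyngeal pouches.

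The 8 members lie on 5 chromosomes of the GRCm38 build. In GENCODE annotation, Pax2 spans chr19:44756045-44837871, Pax5 chr4:44524757-44710487, Pax8 chr2:24420560-24475599, Pax3 chr1:78101267-78197134, Pax7 chr4:139737062-139833528, Pax6 chr2:105668900-105697364, Pax1 chr2:147361925-147393295 and Pax9 chr12:56691767-56712822. Because the paired box is what makes these genes a family, a 60-base coding window of it is shown for each member, 5′ to 3′ on the coding strand. The window is the stretch of the Pax2 coding sequence most alike over the family, and each other member is shown at its best match. The identities over it are thus the highest ones and do not stand for the whole paired box. Capitals mark the bases that differ from Pax2, and coordinates span any intron inside the window.
Pax2 (chr19:44761000-44761703, plus strand, 2 exons): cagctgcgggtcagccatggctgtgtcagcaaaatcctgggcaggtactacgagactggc
Pax5 (chr4:44692017-44697565, minus strand, 2 exons): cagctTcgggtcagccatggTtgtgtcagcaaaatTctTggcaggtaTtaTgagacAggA
Pax8 (chr2:24443122-24444609, minus strand, 2 exons): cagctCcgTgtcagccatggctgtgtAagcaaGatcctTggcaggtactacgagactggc
Pax3 (chr1:78195290-78195349, minus strand, 1 exon): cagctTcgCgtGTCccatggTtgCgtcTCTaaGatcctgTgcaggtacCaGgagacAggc
Pax7 (chr4:139830177-139830236, minus strand, 1 exon): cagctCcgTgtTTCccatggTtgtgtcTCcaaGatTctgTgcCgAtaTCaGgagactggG
Pax6 (chr2:105683950-105684937, plus strand, 2 exons): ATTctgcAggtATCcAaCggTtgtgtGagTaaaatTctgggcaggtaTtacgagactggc
Pax1 (chr2:147365861-147365920, plus strand, 1 exon): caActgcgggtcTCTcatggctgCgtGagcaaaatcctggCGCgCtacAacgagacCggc
Pax9 (chr12:56696702-56696761, plus strand, 1 exon): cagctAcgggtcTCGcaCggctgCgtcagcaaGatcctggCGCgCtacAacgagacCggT
Over this window Pax8 shared 55 of 60 bases with Pax2 and Pax5 shared 52, against 43 to 48 for the other 5 members. Reads could be shared only where such stretches are identical. Over whole transcripts the longest exact run common to any pair was 37 bases, between Pax3 and Pax6, outside the coding sequence of at least 1 of them. Among pairs whose longest run lay in both coding sequences, the maximum was 27 bases, between Pax2 and Pax8. Coding sequences were not searched apart for the other pairs.

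The tdTom+ library held 8981 cells and the tdTom- library 9252, with medians of 17598 and 15996 spliced UMIs per cell. The libraries shared 18 barcodes. Cells were clustered without the Pax genes, so that Pax levels played no part in the clustering, and 17291 cells remained once doublets were removed, 8585 and 8706 per fraction. Clusters that met the marker rule for a cell type were joined into 18 classes named with "-like", and 12 clusters that did not are given by number and leading genes. The rule asked for at least 3 raised markers. It also left out clusters with as many markers of another class, more of its markers among the leading genes, or few UMIs. Leading genes were taken from all genes, Pax included, but Pax genes are not printed where a cluster is said to be led by genes. Levels are given as CPM, the spliced UMIs of a gene scaled to a total of 1000000 spliced UMIs in the group, with exact Poisson 95% intervals. Libraries were 3′ counts, so levels are compared between cells, never between genes. In haemato-endothelial-like cells, which served as the background because early erythroid and endothelial cells are not known to use these genes, the 8 members lay between 0 and 0.69 CPM. Gata1 itself was at 22.8 CPM (952 UMIs) in the tdTom+ and 116 (3760 UMIs) in the tdTom- cells of that class. A frameshift does not remove the counted 3′ end, and the blood cells of the fractions differ in make-up, so this value does not check the genotype by itself.

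Each Pax gene had its highest level in the same group of cells in both fractions, among the 23 groups with at least 50 cells in each. Pax2 and Pax5 led in midbrain-hindbrain-like cells, Pax3 in hindbrain-like cells, Pax6 in the other neural-like cells and Pax7 in neural crest-like cells. Pax1 and Pax9 led in gut endoderm-like cells. Pax8 led in cluster 36, an epithelium led by Tbx1, Galnt3 and Epcam. Across the 23 groups, the levels in the 2 fractions correlated with Pearson r from 0.84 for Pax1 to 0.99 for Pax6, a description only, since the groups share libraries.

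**Figure D1:**
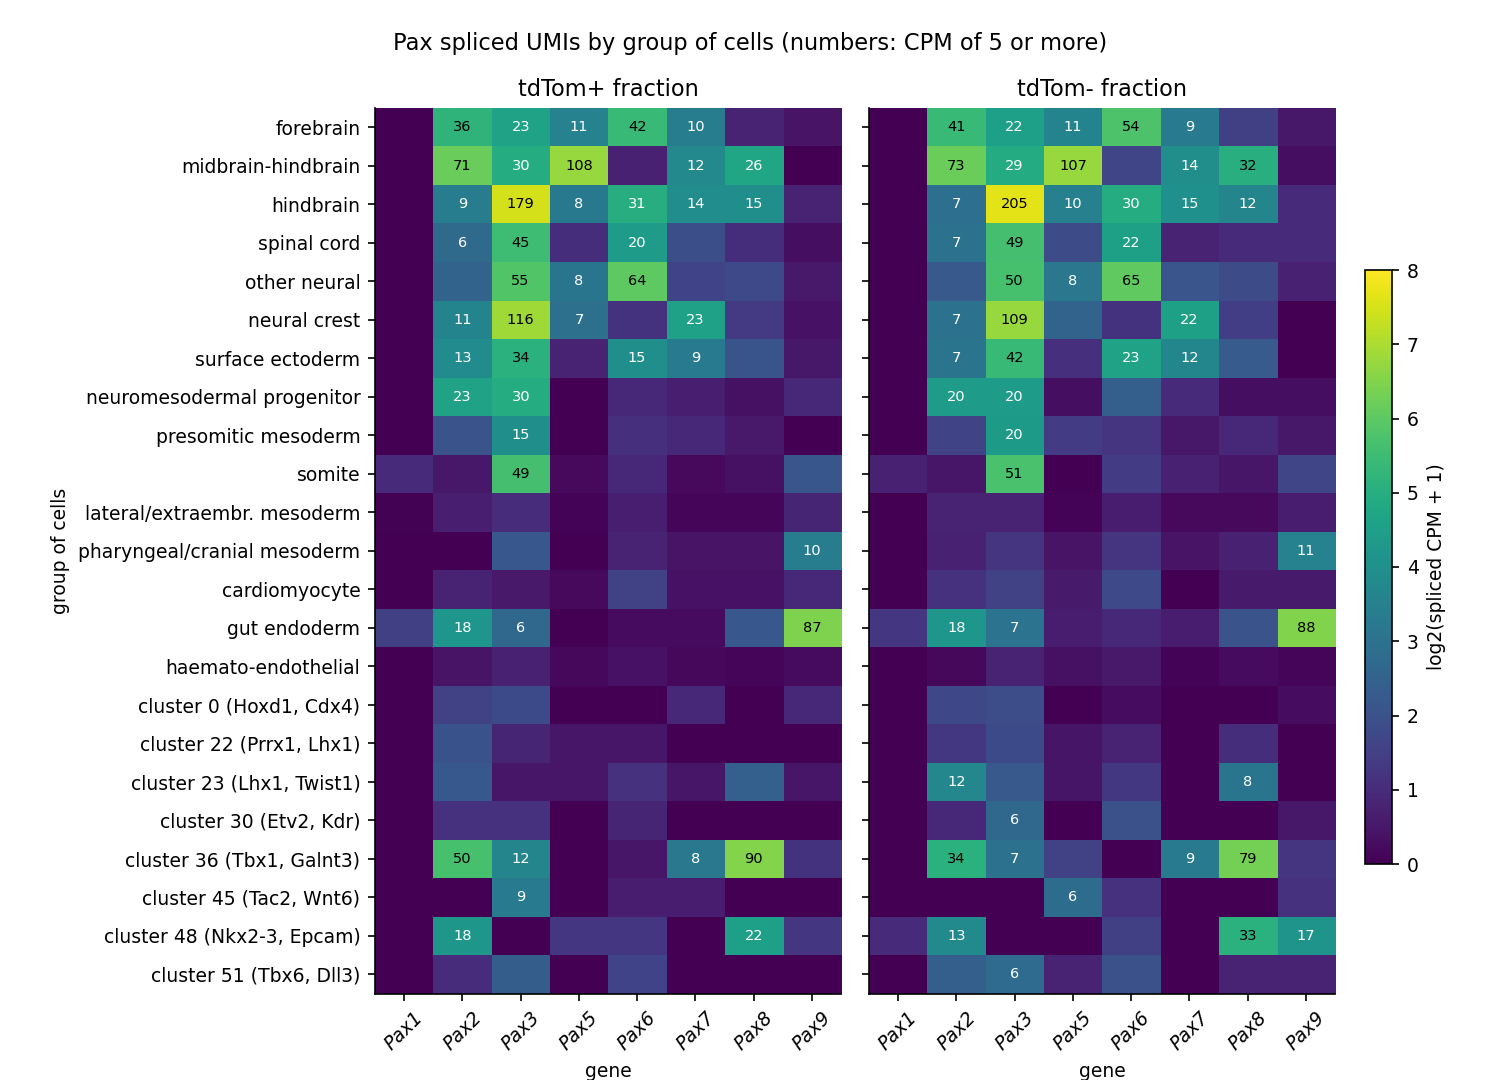
Level of each Pax gene (columns) in each group of cells (rows) of the tdTom+ and tdTom- fractions, as spliced CPM on a log colour scale with values of 5 CPM or more printed. The panels share their pattern: Pax5 is above 100 CPM in midbrain-hindbrain-like cells and Pax9 between 86 and 88 CPM in gut endoderm-like cells of both fractions, while the haemato-endothelial-like row is below 1 CPM.

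In midbrain-hindbrain-like cells, the cluster that carried En1, En2, Wnt1, Fgf8, Fgf17 and Lmx1b, the Pax2, Pax5 and Pax8 group was high together. Pax5 stood at 108 CPM (95% interval 96.3 to 120) in the 167 tdTom+ cells and 107 (98.2 to 117) in the 295 tdTom- cells. The log2 ratio (tdTom+ over tdTom-) was 0.00 (-0.20 to 0.21), which leaves room for a change of that size in either direction from counting alone. Of all Pax5 UMIs in kept cells, 66.5% came from this cluster, against 26.1% of the Pax2 and 23.9% of the Pax8 UMIs. Pax2 stood at 71.1 CPM (61.8 to 81.3) in tdTom+ and 72.7 (65.1 to 80.9) in tdTom- cells, a log2 ratio of -0.03 (-0.29 to 0.22). Pax8 was lower here than in cluster 36, at 25.6 and 31.9 CPM, with a log2 ratio of -0.32 (-0.74 to 0.09). The intervals of all 3 ratios contained 0.

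A Pax5 UMI was found in 69.7% of the 462 midbrain-hindbrain-like cells, a Pax2 UMI in 57.8% and a Pax8 UMI in 31.4%. In haemato-endothelial-like cells, whose median depth was 19442.5 against 16160.5 UMIs, the shares were 0.348%, 0.348% and 0.241%. With each cell thinned to 5000 UMIs, the shares of the midbrain-hindbrain-like cells were 37.7% for Pax5, 29.9% for Pax2 and 9.82% for Pax8, against 0.164%, 0.027% and 0% in the blood class. All 3 genes were seen together in 79 cells (17.1%), Pax2 with Pax5 alone in 126 (27.3%), and none of them in 71 (15.4%). The cells without any had a median of 13288 UMIs and those with all 3 a median of 18524, so the depth of the cell moved with the number of genes seen, and its part was not tested. Of the 322 Pax5 cells, 205 also had a Pax2 UMI, and of the 145 Pax8 cells, 120 also had a Pax5 UMI.

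**Figure D2:**
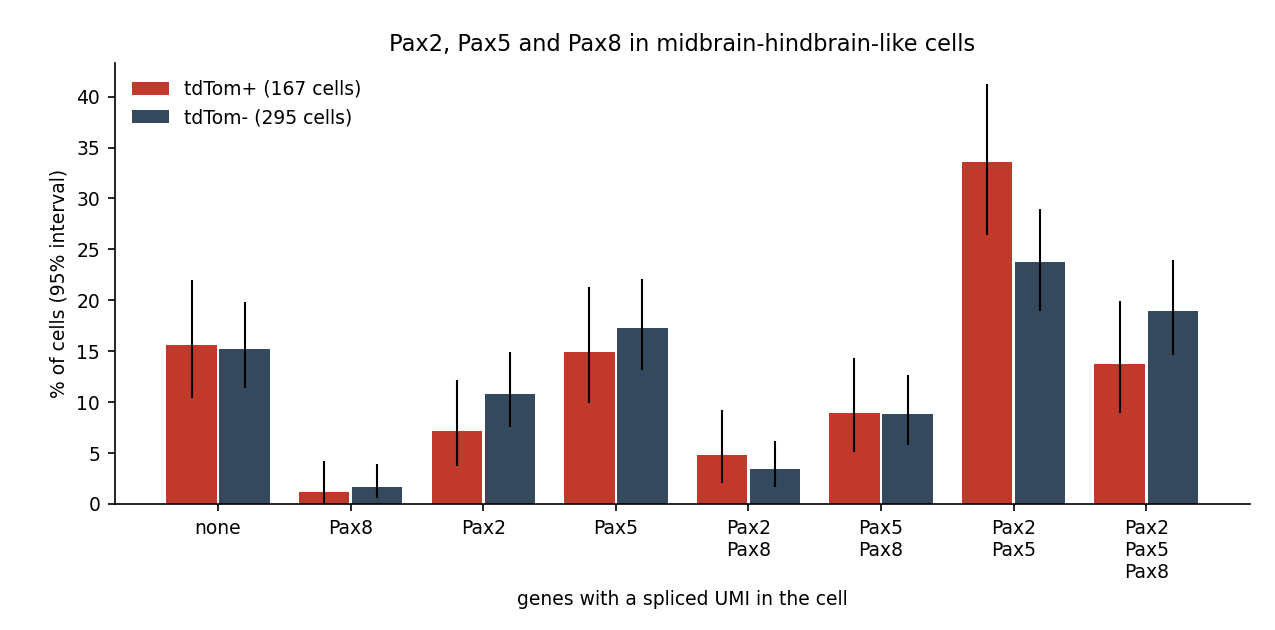
Share of midbrain-hindbrain-like cells (y axis, percent with exact 95% binomial intervals) that held a spliced UMI of each combination of Pax2, Pax5 and Pax8 (x axis), by fraction. The combination of Pax2 and Pax5 was the most frequent in both, at 33.5% of 167 tdTom+ cells and 23.7% of 295 tdTom- cells, with overlapping intervals.

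Because Pax2, Pax5 and Pax8 were high in the same cells, their promoters are shown beside each other, from RefSeq on GRCm38.p6, as 250 bases before to 50 after the start nearest to the GENCODE gene start. Capitals mark CG, the dinucleotide of CpG islands.
Pax2 promoter (chr19:44755502-44755801, plus strand): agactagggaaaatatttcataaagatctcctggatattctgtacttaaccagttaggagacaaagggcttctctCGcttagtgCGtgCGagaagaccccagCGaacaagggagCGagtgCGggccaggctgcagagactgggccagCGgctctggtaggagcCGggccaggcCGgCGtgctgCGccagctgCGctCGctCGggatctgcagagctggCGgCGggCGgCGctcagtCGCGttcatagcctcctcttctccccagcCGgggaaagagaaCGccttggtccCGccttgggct
Pax5 promoter (chr4:44710645-44710944, minus strand): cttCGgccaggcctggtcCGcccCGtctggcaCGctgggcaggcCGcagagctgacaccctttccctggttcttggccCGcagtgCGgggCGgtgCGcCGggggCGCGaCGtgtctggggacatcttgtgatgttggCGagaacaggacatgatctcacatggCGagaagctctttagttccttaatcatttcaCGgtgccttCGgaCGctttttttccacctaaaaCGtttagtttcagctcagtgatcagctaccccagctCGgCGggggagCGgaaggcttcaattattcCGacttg
Pax8 promoter (chr2:24475550-24475849, minus strand): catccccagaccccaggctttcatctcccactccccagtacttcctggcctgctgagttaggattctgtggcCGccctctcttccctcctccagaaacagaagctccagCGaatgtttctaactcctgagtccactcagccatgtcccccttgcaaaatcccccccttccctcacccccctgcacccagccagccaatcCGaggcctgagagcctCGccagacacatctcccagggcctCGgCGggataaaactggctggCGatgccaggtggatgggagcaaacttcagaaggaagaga
Pax2 and Pax5 each held 23 CG in these 300 bases and Pax8 held 7, where the median of 32851 mouse promoters was 7. RefSeq gave 10 promoters for 7 members and none for Pax3, and 8 of the 10 held more CG than the median. TATAAA, searched on both strands, was in none of the 10 promoters, and 13.6% of all promoters held it. These counts describe the sequence, and no site or factor was measured here.

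Cluster 36 was the site of the highest Pax8 level. Pax8, which is known for the otic placode and the thyroid, stood at 90.3 CPM (78.8 to 103) in 128 tdTom+ cells and 78.8 (65.4 to 94.05) in 101 tdTom- cells. The log2 ratio was 0.20 (-0.13 to 0.53). Pax2, known for the ear as well, was at 49.9 CPM in tdTom+ and 33.6 in tdTom- cells of this cluster, with a log2 ratio of 0.57 (0.09 to 1.07). That ratio counts spliced UMIs only. Unspliced Pax2 UMIs were 214 in tdTom+ and 154 in tdTom- cells, where the spliced UMIs of all genes were 2424232 and 1548868. Scaled to these totals, unspliced Pax2 was not higher in tdTom+ cells. Of 134 cells with a Pax8 UMI, 85 also had a Pax2 UMI, and Pax5 was seen in 2 of the 229 cells, so the pair here was Pax2 with Pax8 and lacked the Pax5 of the brain. The cluster was left unnamed because it raised 4 surface ectoderm markers (Epcam, Grhl2, Dlx5 and Dlx6) but held more markers of another class among its 10 leading genes. Under finer clustering, 176 of its cells formed a cluster that raised the otic placode markers Hmx2, Hmx3, Foxi2 and Eya1, where Pax8 reached 109 CPM in 98 tdTom+ and 102 in 78 tdTom- cells. Cluster 48, an epithelium led by Nkx2-3, Epcam and Has2, also held Pax8, at 21.95 CPM in tdTom+ (31 UMIs) and 33.4 CPM in tdTom- cells (36 UMIs).

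No cluster met the rule for a renal name. The nearest was cluster 23, 290 cells led by Lhx1, Twist1 and Osr1, in which 2 of 7 intermediate mesoderm markers (Osr1 and Lhx1) were raised. Pax2 and Pax8, which together are known to specify the nephric lineage, were low over the whole cluster. Pax2 had 9 UMIs (3.62 CPM, 1.65 to 6.87) in the 125 tdTom+ cells and 33 UMIs (12.1 CPM, 8.35 to 17.04) in the 165 tdTom- cells. Pax8 had 11 UMIs (4.42 CPM) and 21 UMIs (7.72 CPM). The log2 ratio of Pax2 was -1.75 (-2.99 to -0.65), but with 42 UMIs the gene was under the 100 UMIs asked of genes compared between fractions. When the cells were split, after these values had been seen, by how many of the 7 markers they held, the fractions differed in where the Pax2 UMIs lay. In the 60 cells with 3 or more, Pax2 had 2 UMIs in 29 tdTom+ cells and 31 UMIs in 31 tdTom- cells, from 2 and 12 cells. Pax8 had 6 and 17 UMIs in the same cells. In the 152 cells with 2 markers the order was the other way, with 7 Pax2 UMIs (5.16 CPM) in tdTom+ and 2 UMIs (1.40 CPM) in tdTom- cells. In the 78 cells with 0 or 1 marker no Pax2 UMI was seen. The split is a range of marker detection and not a cell type, and the tdTom- value rests on 12 cells.

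Pax2 was also found in the forebrain, in axial progenitors and in endoderm. In forebrain-like cells it stood at 36.1 CPM in tdTom+ and 41.0 in tdTom- cells, with a log2 ratio of -0.18 (-0.52 to 0.14). Within that class the cluster led by Lhx2, Rax and Hesx1, genes of the eye field, had 52.8 and 56.4 CPM, and the cluster led by Wnt8b and Lhx5 had 20.5 and 22.4 CPM. The eye-field genes and Pax2 were thus high in the same cluster. Neuromesodermal progenitor-like cells had 23.4 and 20.5 CPM. In gut endoderm-like cells the class level was 17.6 CPM in both fractions, but in the cluster led by Apela, Gpx2 and Cpn1 it was 59.2 CPM in 48 tdTom+ and 60.02 in 89 tdTom- cells. In the surface ectoderm-like class it had 97 UMIs (13.5 CPM) in the tdTom+ and 48 UMIs (7.48 CPM) in the tdTom- cells, for a log2 ratio of 0.85 (0.33 to 1.38). All 4 of its clusters had a higher Pax2 level in the tdTom+ cells, with 27.8 CPM (25 UMIs) against 9.15 CPM (8 UMIs) in the cluster led by Prap1 and Lcn2.

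**Figure D3:**
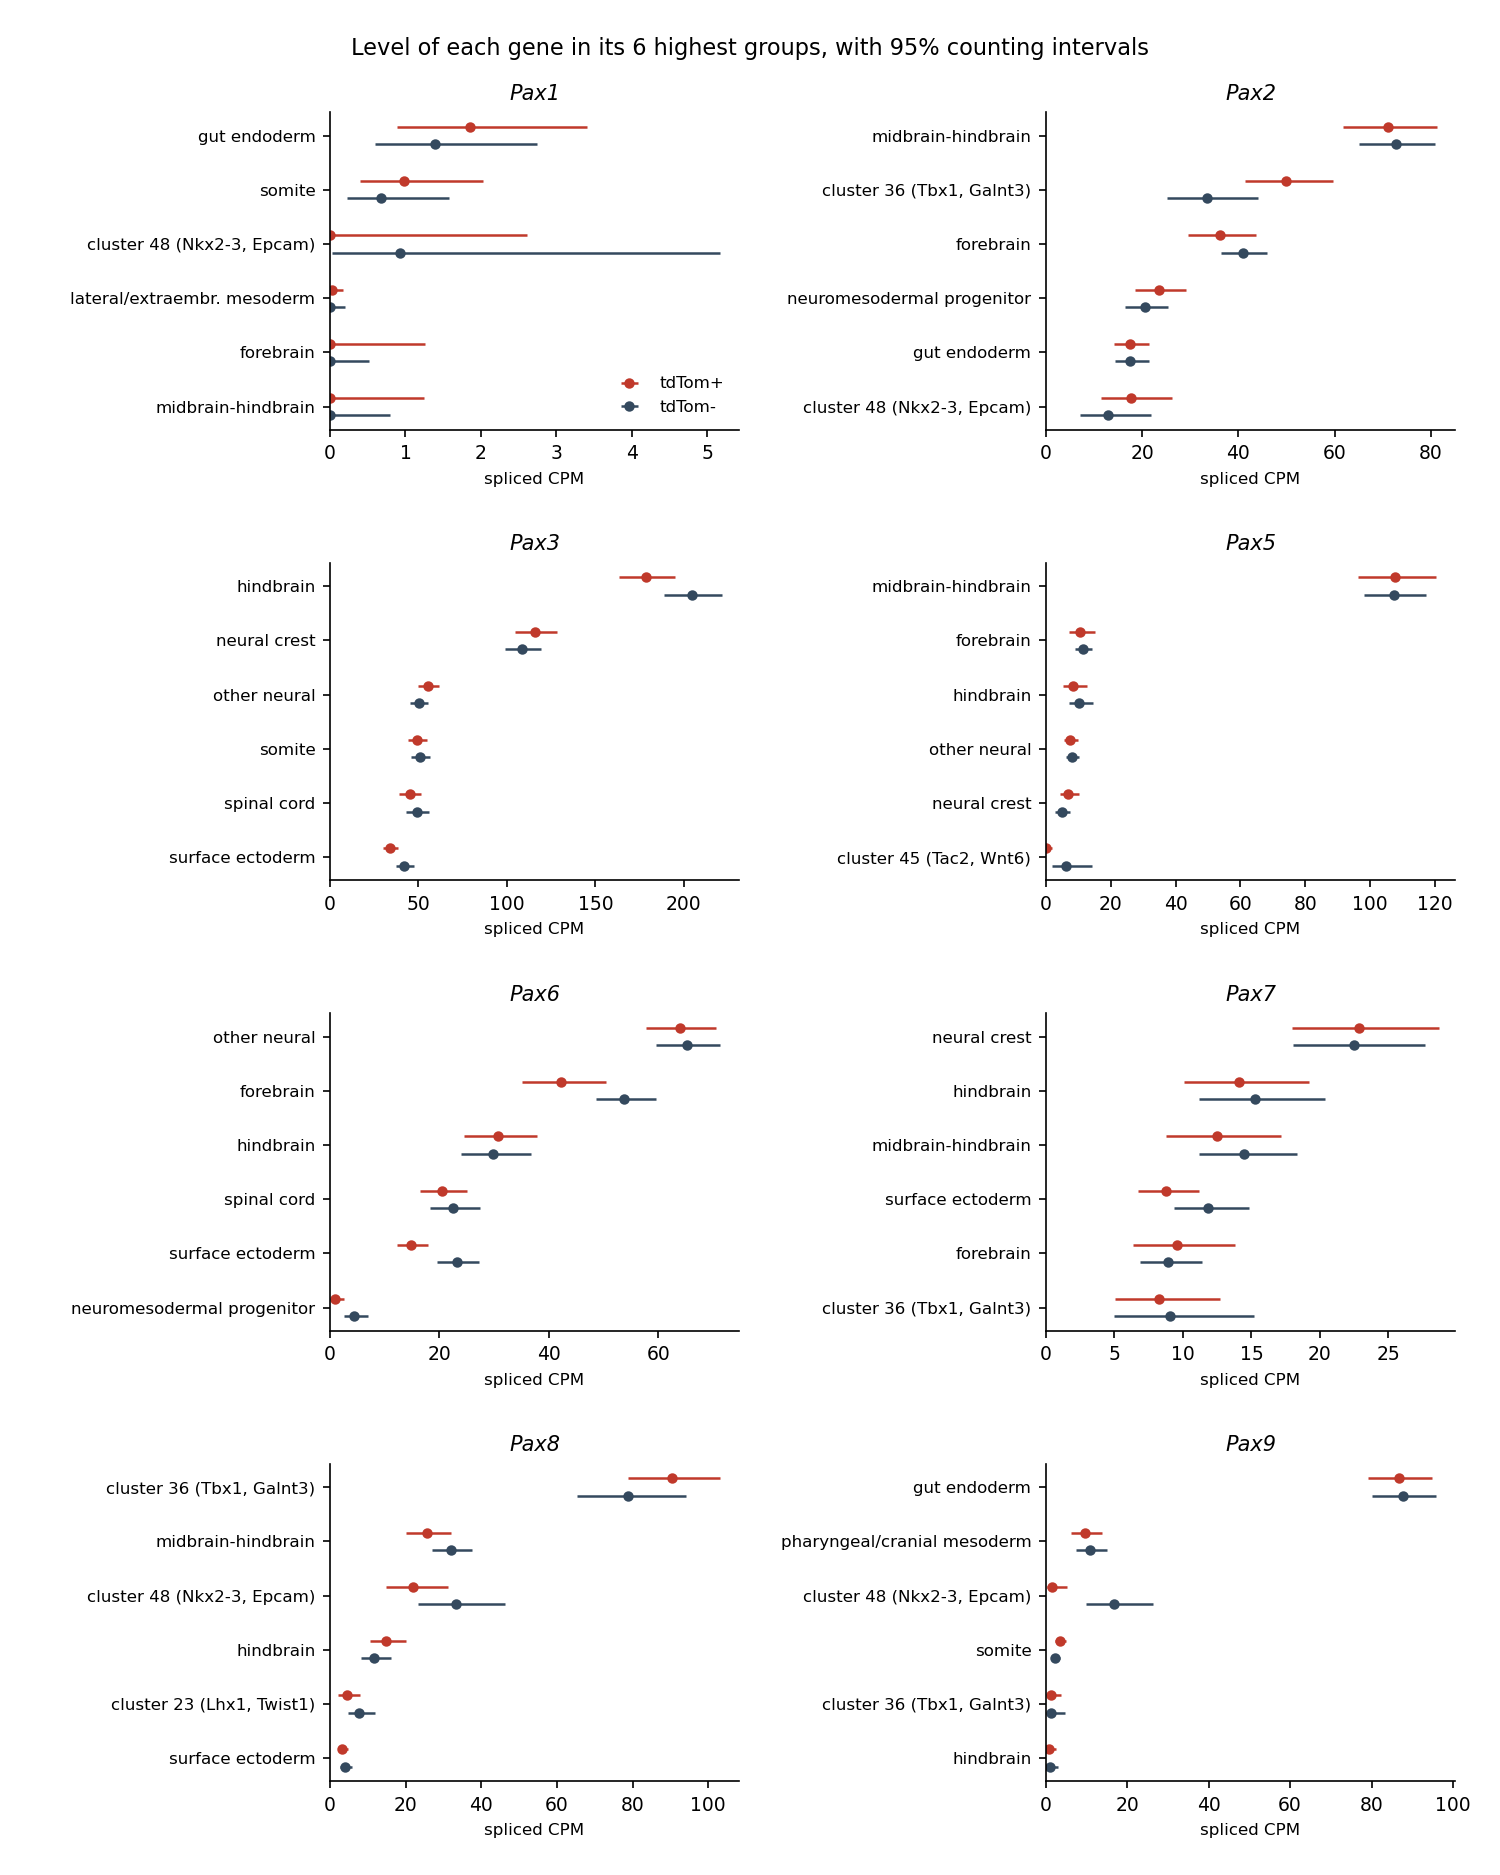
Spliced CPM of each Pax gene (x axis of each panel) in its 6 highest groups of cells, with exact Poisson 95% intervals, tdTom+ and tdTom- drawn apart. Pax5 and Pax9 have 1 group far above the rest, whereas Pax2, Pax3, Pax6 and Pax7 spread over several groups.

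Pax3 was spread over the nervous system, the ectoderm and the segmented mesoderm, with a UMI in 2192 of the kept cells. In hindbrain-like cells it stood at 179 CPM (163 to 195) in 157 tdTom+ and 205 (189 to 222) in 190 tdTom- cells. The log2 ratio was -0.20 (-0.37 to -0.03), and the Poisson intervals of the 2 levels overlapped. The highest cluster of the class was led by Msx3, Foxd3, Crabp2 and Zic1, genes of the dorsal neural tube and early crest, and had 288 and 327 CPM. A Pax3 UMI was found in 71.2% of hindbrain-like cells (47.8% after thinning to 5000 UMIs) and in 1.23% of haemato-endothelial-like cells (0.327% after thinning), with medians of 16145 and 19442.5 UMIs. Neural crest-like cells, which carried Foxd3, Sox10 and Tfap2a, had 116 CPM in tdTom+ and 109 in tdTom- cells, a log2 ratio of 0.09 (-0.11 to 0.30).

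Outside the nervous system Pax3 was found in part of the segmented mesoderm, in neuromesodermal progenitor-like cells and in the surface ectoderm. Somite-like cells had 49.2 CPM in 427 tdTom+ and 51.0 in 487 tdTom- cells, a log2 ratio of -0.05 (-0.27 to 0.16). The level was carried by the cluster led by Tcf15, Meox1 and Aldh1a2, with 96.4 and 102 CPM, whereas the cluster led by Arg1, Aldh1a2 and Dach1 had 4.43 and 5.33 CPM. In presomitic mesoderm-like cells Pax3 was at 14.7 and 19.6 CPM. Neuromesodermal progenitor-like cells had 29.8 CPM in tdTom+ and 20.5 in tdTom- cells, with a log2 ratio of 0.54 (0.11 to 0.97). Surface ectoderm-like cells had 33.9 and 41.9 CPM, with a log2 ratio of -0.31 (-0.56 to -0.05), although in the ectodermal cluster where Pax3 was highest, led by Prap1, Lcn2 and Tubb3, the levels were 127 and 131 CPM (log2 ratio -0.05, -0.44 to 0.33).

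Pax7, the paralogue of Pax3, lay in the crest, the dorsal brain groups and the ectoderm and was nearly absent from the somites. In neural crest-like cells it had 74 UMIs in tdTom+ (22.8 CPM, 17.9 to 28.7) and 88 UMIs in tdTom- cells (22.5 CPM, 18.02 to 27.7). The log2 ratio was 0.02 (-0.44 to 0.49). Of the 118 crest cells with a Pax7 UMI, 98 also had a Pax3 UMI, whereas of the 298 with a Pax3 UMI, 32.9% had a Pax7 UMI. Pax3 was seen in 77.4% of all cells of the class. Hindbrain-like cells had 14.7 CPM of Pax7 and midbrain-hindbrain-like cells 13.7 CPM over both fractions. Its highest cluster was the Prap1- and Lcn2-led ectoderm, at 48.9 CPM (44 UMIs) in tdTom+ and 40.0 (35 UMIs) in tdTom- cells. Somitic cells, taken as the presomitic and somite-like classes together, held 12 Pax7 UMIs in 1498 cells (0.51 CPM) beside 882 Pax3 UMIs (37.4 CPM).

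Pax6 was a gene of the neural tube, the forebrain and the anterior ectoderm. The other neural-like cells raised at least as many spinal cord markers as markers of any other list, but neither Hoxb8 nor Hoxb9. Markers of other brain regions could still be raised in them. In this class Pax6 stood at 63.9 CPM (57.9 to 70.5) in 382 tdTom+ and 65.2 (59.6 to 71.2) in 516 tdTom- cells. The log2 ratio was -0.03 (-0.22 to 0.16). The class was split, with 101 and 97.5 CPM in the cluster led by Crabp2, Fgfbp3 and Hes5 and 12.47 and 19.8 CPM in the cluster led by Vgll3, Stmn2 and Fst, and Pax3 went the other way, with 39.6 and 37.3 CPM in the former and 77.5 and 68.5 CPM in the latter. A Pax6 UMI was found in 49.9% of the class (24.9% after thinning) against 0.722% (0.273%) of haemato-endothelial-like cells, with medians of 15031 and 19442.5 UMIs. In 129 cells of the class Pax3 and Pax6 were seen together, out of 301 with Pax3 and 448 with Pax6.

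In forebrain-like cells Pax6 was at 42.3 CPM in 170 tdTom+ and 53.8 in 420 tdTom- cells, with a log2 ratio of -0.35 (-0.65 to -0.05). The eye-field cluster led by Lhx2 and Rax had 47.9 and 48.4 CPM (log2 ratio -0.01, -0.44 to 0.39), and the cluster led by Wnt8b, Lhx5 and Otx2 had 37.0 and 60.4 CPM (-0.71, -1.16 to -0.27). The lower class level thus lay in the Wnt8b-led cluster. Surface ectoderm-like cells had 14.8 and 23.2 CPM, a log2 ratio of -0.64 (-1.02 to -0.28). Nearly all Pax6 UMIs of that class lay in the cluster led by Dlx5, Dlx6 and Shisa2 (101 of 107 in tdTom+ and 142 of 149 in tdTom- cells). Within it the levels were 47.99 and 57.6 CPM, with a log2 ratio of -0.26 (-0.65 to 0.11). That cluster made up 28.5% of the class in tdTom+ and 38.1% in tdTom- cells, so the make-up of the class moved with the ratio, and its part was not tested. Hindbrain-like cells had 30.6 and 29.8 CPM and spinal cord-like cells 20.4 and 22.5 CPM. The antisense gene Pax6os1 overlaps the start of Pax6 (it spans chr2:105536080-105670330), and the sources used here do not say whether strand was used in counting.

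Pax9 lay mostly in endoderm, with 80.5% of its UMIs in gut endoderm-like cells. It stood at 86.8 CPM (79.1 to 94.98) in 355 tdTom+ and 87.7 (80.2 to 95.7) in 424 tdTom- cells, a log2 ratio of -0.02 (-0.20 to 0.17). The cluster led by Igfbp5, Trh and Irx1, which raised markers of both foregut and hindgut, had 249 CPM in tdTom+ and 261 in tdTom- cells, and 87.9% of its cells held a Pax9 UMI. In the class as a whole 43.3% of cells did (26.9% after thinning), against 0.267% (0.082%) in the haemato-endothelial-like class, with medians of 13848 and 19442.5 UMIs. The foregut endoderm-like cluster led by Pyy, Spink1 and Ttr had 27.6 CPM (46 UMIs) in tdTom+ and 54.8 (75 UMIs) in tdTom- cells, a log2 ratio of -0.99 (-1.55 to -0.44) that the class level did not show. Pharyngeal and cranial mesoderm-like cells came next with 10.2 CPM over both fractions, and somite-like cells had 2.77 CPM.

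Pax1, the paralogue of Pax9, was close to the detection limit. It had 10 UMIs (1.85 CPM, 0.89 to 3.40) in tdTom+ and 8 UMIs (1.39 CPM, 0.60 to 2.74) in tdTom- gut endoderm-like cells, and 12 UMIs over both fractions in somite-like cells. All 15 endodermal cells with a Pax1 UMI also had a Pax9 UMI. No Pax1 UMI was seen in 2797 neural cells. Its spliced matrix held 39 UMIs where the Cell Ranger total was 382, so the level given here is a small part of what the first counting step recorded.

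Between the fractions, 30 pairs of a member and a group had 100 or more UMIs, in 12 groups. None of the 30 differed 2-fold or more with an interval that left out 0. Of all genes at this depth, 0.595% did so in forebrain-like, 0.523% in midbrain-hindbrain-like, 0.654% in hindbrain-like, 0.538% in spinal cord-like, 0.516% in other neural-like and 0.645% in neural crest-like cells. The background was 0.745% in surface ectoderm-like, 0.524% in neuromesodermal progenitor-like, 0.49% in presomitic mesoderm-like, 0.567% in somite-like and 0.819% in gut endoderm-like cells and 0.478% in cluster 36. Against a background this low, 0 of 30 does not set the family apart from other genes. An interval without 0, whatever the size of the ratio, was found for 7 of the 30.

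These 7 were spread over 5 groups. In forebrain-like cells 1 of 4 members had such an interval (Pax6), where 14.5% of all genes did, in hindbrain-like cells 1 of 2 (Pax3), where 15.8% did, and in neuromesodermal progenitor-like cells 1 of 2 (Pax3), where 17.2% did. In surface ectoderm-like cells it was 3 of 4 (Pax2 higher, Pax3 and Pax6 lower in tdTom+), where 19.4% of all genes did. In cluster 36 it was 1 of 2 (Pax2, higher in spliced but not in unspliced UMIs), where 14.6% did. No member had one in midbrain-hindbrain-like (14.6% of all genes), spinal cord-like (18% of all genes), other neural-like (18.5%), neural crest-like (16%), presomitic mesoderm-like (16.7%), somite-like (19.6%) or gut endoderm-like cells (21.6%). The 4 negative and 3 positive values had no shared direction. The median log2 ratio of all genes was between -0.04 and 0.00 in the 12 groups.

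**Figure D4:**
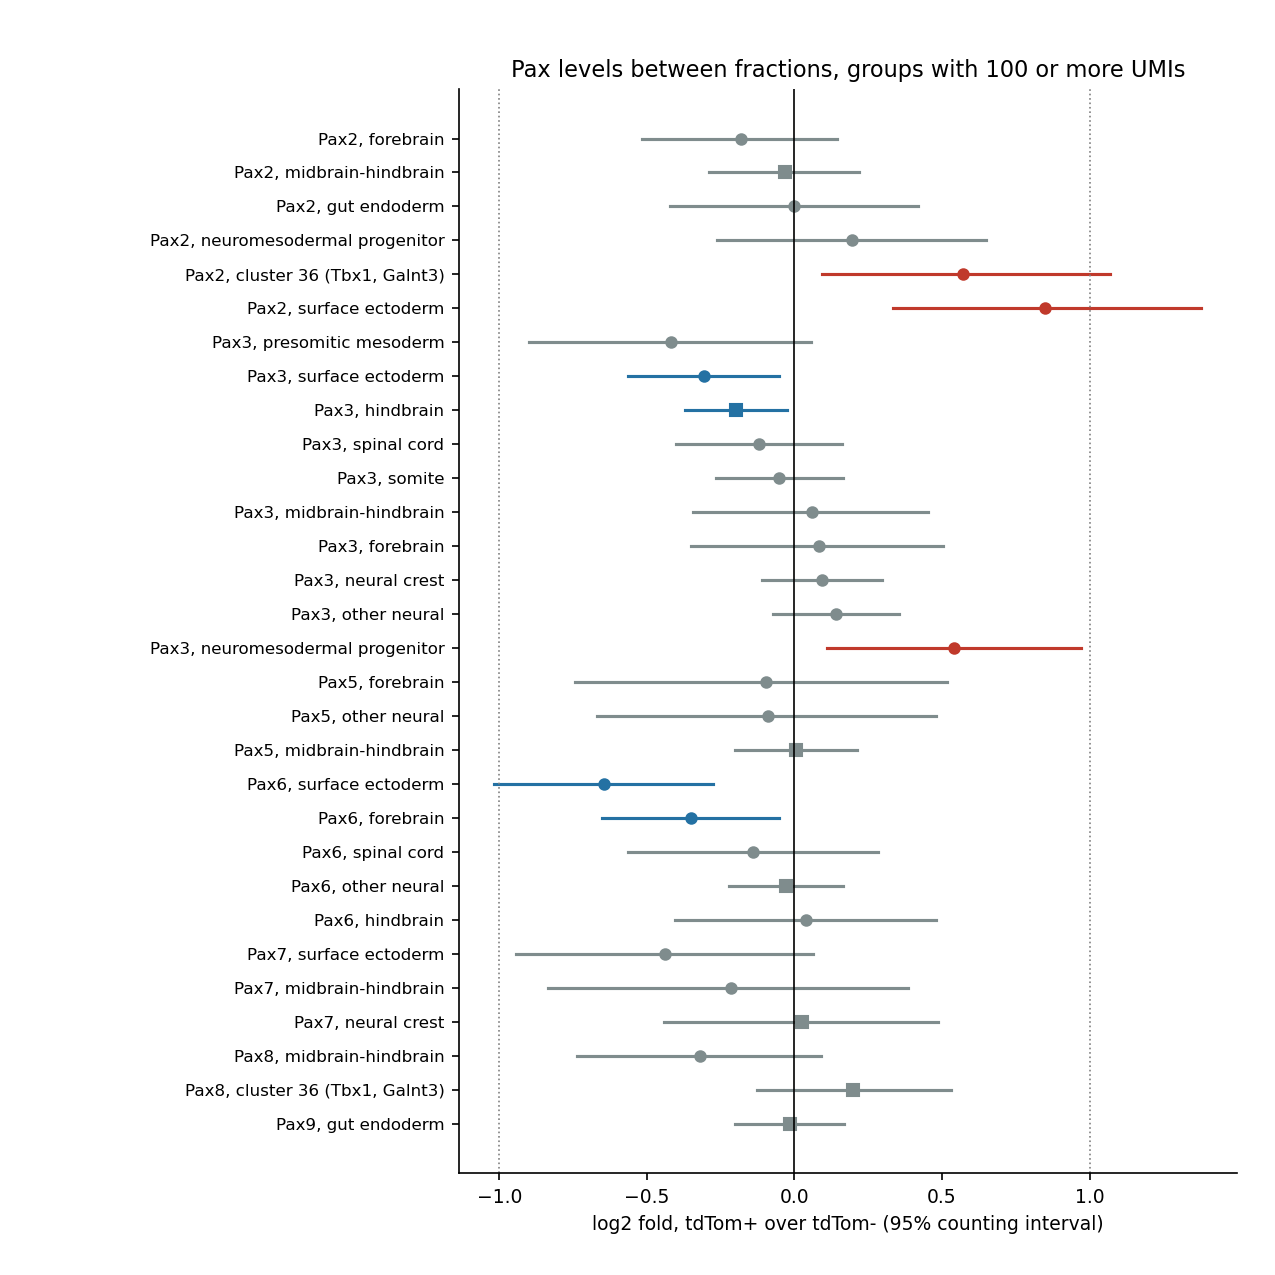
Log2 fold of tdTom+ over tdTom- (x axis) with its exact 95% counting interval for each Pax gene and group with 100 or more UMIs (y axis). The folds lie between -0.64 and 0.85, and 7 of the 30 intervals leave out 0.

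Over whole libraries, with every barcode counted, 7 members had 100 or more UMIs, and 6 of them (all but Pax8) were lower in tdTom+ with an interval that left out 0, as were 30.2% of all genes. Pax5 had 3.19 CPM in tdTom+ and 5.46 in tdTom- (log2 ratio -0.78, -0.94 to -0.62), and Pax6 had 6.06 and 9.66 CPM (-0.67, -0.79 to -0.56). Inside their leading groups the same genes had log2 ratios of 0.00 and -0.03. The share of tdTom+ cells was 36.1% among midbrain-hindbrain-like, 42.5% among other neural-like and 28.8% among forebrain-like cells and 53.6% among haemato-endothelial-like cells, and the part of this make-up in the whole-library ratios was not tested. Pax8 and Pax9 each had a log2 ratio of -0.18 (-0.35 to 0.00 and -0.33 to -0.02), and tdTom+ cells made up 55.9% of cluster 36 and 45.6% of gut endoderm-like cells.

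Unspliced UMIs were a larger share for 7 of the 8 members than for the median gene. Unspliced UMIs made up 64.5% of the deposited UMIs of Pax1, 63.5% of Pax5, 62.0% of Pax2, 58.0% of Pax3, 57.9% of Pax6, 49.5% of Pax7 and 47.2% of Pax8. The median of 14310 genes was 22.5%. Pax9, at 21.6%, was the exception. Over whole libraries the shares of the fractions differed by at most 3.71 percentage points, as for Pax2 with 59.8% in tdTom+ and 63.5% in tdTom-. Inside groups they could differ more, and in either direction. Pax2 had 50% (42.7 to 57.3) in tdTom+ and 66.1% (60.4 to 71.5) in tdTom- gut endoderm-like cells. Pax9 had 46% (31.8 to 60.7) in tdTom+ and 17.5% (7.34 to 32.8) in tdTom- pharyngeal and cranial mesoderm-like cells, from few UMIs. Within a gene the share changed between groups, and that of Pax7 was 44.9% in neural crest-like and 57.0% in midbrain-hindbrain-like cells. The spliced matrix held 34.5% of the Cell Ranger UMIs of Pax6 and 10.2% of those of Pax1, where the median gene had 95.1%, so both the levels and the unspliced shares of these genes rest on a spliced layer that holds a smaller part of their UMIs. Spliced and unspliced UMIs together came to 28.8% of the Cell Ranger UMIs of Pax1 and 81.8% of those of Pax6.

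**Figure D5:**
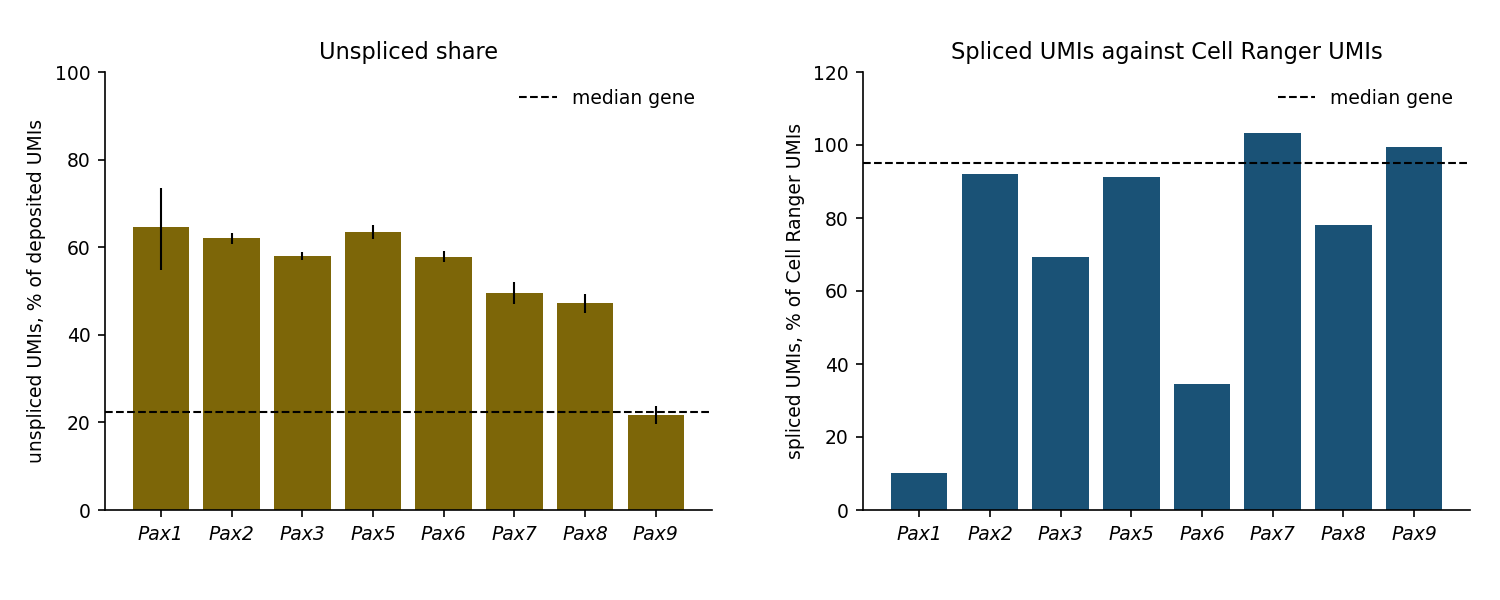
Left, unspliced UMIs as percent of the deposited UMIs of each Pax gene; right, spliced UMIs as percent of its Cell Ranger UMIs; dashed lines give the median gene. All members but Pax9 lie above the median unspliced share, and Pax1 (10.2%) and Pax6 (34.5%) lie lowest on the right.

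The genes most like each member were sought over 73 clusters of at least 30 cells, by Pearson correlation of log2(CPM + 10) among 12509 genes. Clusters share their libraries, so these values are descriptions. Pax5 was followed most closely by Pou3f3 (r = 0.83), Fam181b (0.82) and En1 (0.81), the last of these a homeobox gene of the midbrain-hindbrain region. Pax3 was most like Zic2 (0.83), a zinc finger gene of the dorsal neural tube, then Zic5 and Ptn. Pax6 was most like Nrcam (0.86), which encodes a neuronal adhesion molecule, Lmo3 and Gprin1. Pax8 was most like Ctxn3 (0.81), Klhl14 and Foxi2, Pax2 like Zcchc18 (0.78), Spred3 and Slain1, and Pax7 like Coch (0.78), Tfap2b and Gadd45a. Pax9 was most like Trh (0.80), the gene of thyrotropin-releasing hormone, with Hs3st6 and Gpx2. Pax1, from 32 UMIs, had Hs3st6 (0.72), Lypd2 and Trh. Between members the highest values were 0.74 for Pax1 with Pax9 and 0.72 for Pax3 with Pax7, both within paralogue groups. The first rests on few UMIs, as 16 of the 32 Pax1 UMIs came from the cluster where Pax9 was highest. Next came Pax5 with Pax7 (0.61), across groups, and Pax2 with Pax8 (0.59), while Pax2 with Pax5 had 0.53 and Pax5 with Pax8 had 0.41. Pairs across groups also lay above the last value, among them Pax7 with Pax8 (0.53) and Pax2 with Pax7 (0.52).

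Genes known to act with the Pax factors were compared between the fractions in the groups where those factors were high. All 8 midbrain-hindbrain boundary genes had 100 or more UMIs in midbrain-hindbrain-like cells, with a median log2 ratio of -0.05. Of them 0 passed 2-fold, where 0.523% of all genes did. En1 had 478 CPM in tdTom+ and 440 in tdTom- cells (log2 ratio 0.12, 0.02 to 0.22). Fgf8, the signal of the isthmic organiser, had 149 and 162 CPM (-0.12, -0.29 to 0.05). En2 (-0.40, -0.65 to -0.16) and Fgf17 (-0.32, -0.64 to -0.02) were lower in tdTom+. The intervals of the remaining boundary genes contained 0, and 14.6% of all genes had an interval without 0. Of 9 forebrain, eye and neural patterning genes, 5 had enough UMIs in forebrain-like cells and 1 passed 2-fold, where 0.595% of all genes did. This was Nkx6-1, a ventral homeobox gene, with 20.1 CPM in tdTom+ and 9.75 in tdTom- cells (log2 ratio 1.04, 0.52 to 1.57). In the other neural-like cells Nkx6-1 had a log2 ratio of -0.64 (-0.89 to -0.39) and Irx3 of -0.22 (-0.33 to -0.11). Of all genes, 18.5% had an interval without 0 there. The eye-field genes Rax and Lhx2 had log2 ratios of -0.27 (-0.43 to -0.11) and -0.41 (-0.56 to -0.26) in forebrain-like cells. The intervals of Six3 and Irx3 contained 0 there, and 14.5% of all genes had an interval without 0.

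The dorsal neural tube and crest, somite and renal lists held no gene past 2-fold. This covered 6 of 9 dorsal neural tube and crest genes in neural crest-like cells, where 0.645% of all genes passed. In hindbrain-like cells it covered 5 of 9, where 0.654% of all genes passed. For somite genes in somite-like cells it covered 7 of 9, where 0.567% of all genes passed. It also covered 2 of 9 patterning genes in the other neural-like cells, where 0.516% of all genes passed. In cluster 23 it covered 3 of 9 renal genes, where 0.691% of all genes passed. In hindbrain-like cells Zic1 had a log2 ratio of -0.72 (-1.03 to -0.41) and Msx1 had 0.46 (0.27 to 0.65). The intervals of the other genes of the list compared there contained 0, and 15.8% of all genes had an interval without 0. Sox10, the crest gene downstream of Pax3, had 116 CPM in tdTom+ and 163 in tdTom- crest-like cells (log2 ratio -0.49, -0.68 to -0.31), and Msx1 had 102 and 64.8 CPM (0.66, 0.42 to 0.90). Sox9 (0.35, 0.24 to 0.46) and Msx2 (0.50, 0.06 to 0.94) were also higher in tdTom+ crest-like cells. The intervals of Foxd3 and Tfap2a contained 0 there, and 16% of all genes had an interval without 0. Uncx, a gene of the posterior somite, had 13.5 and 25.1 CPM in somite-like cells (-0.89, -1.26 to -0.53). Meox1 (-0.12, -0.19 to -0.06) and Dmrt2 (-0.37, -0.71 to -0.04) were also lower in tdTom+ somite-like cells. The intervals of the other somite genes compared contained 0, and 19.6% of all genes had an interval without 0. In cluster 23 Osr1 had 156 and 142 CPM and Lhx1 261 and 291 CPM, with log2 ratios of 0.14 and -0.16 beside the -1.75 of Pax2.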

How the data were processed

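The deposited files held raw counts of spliced and of unspliced UMIs per cell and gene, made by the authors with Cell Ranger 3.0.2 on mm10, after empty-droplet filtering, and split by velocyto. Per the file headers, a table of cells gave the percent of mitochondrial counts (median 2.07 in tdTom+ and 2.08 in tdTom-), and a table of genes gave Cell Ranger counts. Doublets were called per library with Scrublet (4.20% and 5.60% of cells). Cells were clustered with scanpy 1.11.5 on 2130 variable genes, without Pax genes, Gata1 and sex-linked genes (50 components, 20 neighbours, Leiden resolution 5), into 78 clusters. Of these 4 were doublet clusters and 62 were named, which asked for at least 3 markers raised 2-fold and for the further conditions given above. With 1 library per fraction, no test was run. Folds of summed spliced counts carry exact conditional 95% intervals, and genes with 100 or more UMIs in a group were compared, called at 2-fold with an interval without 0. Tested on simulated data from the 6 leading groups, 39% to 57% of 2-fold changes and 99% to 100% of 4-fold changes were called. A call needed an observed ratio of 2-fold or more, so the rate for true 2-fold changes was largely set by that rule. The simulated counts were Poisson, without spread between cells or embryos. Genes were named by membership, by fixed lists and, for likeness, as the 3 most correlated genes. Members and lists were chosen with earlier results of these data known. Alternatives were TMM scaling (edgeR 4.0.16), both count layers summed, thinning, other clusterings and other count minimums. Results of 2 lists are not reported here.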

Additional observations from a re-analysis of the deposited data

Results flagged for a closer look

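Pax2 is flagged because its effect between fractions went opposite ways in different cells. Its log2 fold of tdTom+ over tdTom- was 0.85 in surface ectoderm-like cells and 0.57 in cluster 36, the Tbx1- and Galnt3-led epithelium, and -1.75 in cluster 23, the Lhx1- and Osr1-led cells. The last value rests on 9 and 33 UMIs, and 31 of those 33 came from 12 tdTom- cells. The value of cluster 36 holds for spliced UMIs only. Unspliced Pax2 UMIs there (214 in tdTom+, 154 in tdTom-) were not higher in tdTom+ once scaled to the UMIs of the group. Pax3 is flagged in the same way, with a log2 fold of 0.54 in neuromesodermal progenitor-like cells, -0.20 in hindbrain-like cells and -0.31 in surface ectoderm-like cells. In each case the intervals lay on opposite sides of 0, they cover counting error only, and the difference was not tested, since each fraction was 1 library. The flag asked for 20 or more UMIs in a group, and the share of all genes that meet it was not counted. Among all genes with 100 or more UMIs, 14.5% to 21.6% had an interval without 0 in the 12 groups compared. That share is taken within 1 group at a time, so it cannot say whether the flag sets these genes apart.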

How the results depend on the processing

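No paired analysis was possible because each fraction was 1 library and no test was run. Of 64 alternatives for the folds in the leading groups, 61 stayed within the counting interval. A reversal was counted only where the main interval left out 0, which held for Pax3 alone, and 0 were found. Sign changes of the other members were not counted, and Pax8 went from 0.20 to -0.28 on thinning. Thinning to 5000 UMIs gave 0.57 (-0.41 to 1.56) for Pax7 and -0.28 (-0.88 to 0.31) for Pax8, and coarser clusters gave -0.0048 for Pax3, whose leading group became neural crest-like. Of 48 alternatives for the levels, 31 stayed within the interval. Spliced and unspliced UMIs summed gave 3.72 CPM for Pax1, 165 for Pax2, 388 for Pax3, 256 for Pax5, 135 for Pax6, 35.5 for Pax7 and 137 for Pax8. Thinning gave 165 CPM for Pax3. Coarser clusters gave 161 for Pax3, 55.3 for Pax6, 19.07 for Pax7 and 64.4 for Pax8, and finer clusters 56.0 for Pax2, 297 for Pax3, 72.3 for Pax6, 29.2 for Pax8 and 97.9 for Pax9. Pax8 fell by construction there, as its otic placode-like cluster was joined to the surface ectoderm-like class. Genes past 2-fold with 100, 20 and 1 or more UMIs numbered 64, 267 and 367 in gut endoderm-like, 37, 184 and 267 in hindbrain-like, 33, 164 and 241 in midbrain-hindbrain-like, 39, 192 and 277 in neural crest-like and 40, 205 and 293 in other neural-like cells and 23, 165 and 255 in cluster 36. In midbrain-hindbrain-like cells the share that was higher in tdTom+ went from 15.2% to 35.98% and 41.5%. The cause of these changes was otherwise not tested. The renal values and Pax1 rest on few UMIs, for Pax1 after a spliced layer with 10.2% of its Cell Ranger UMIs, and with 1 library per fraction no spread between embryos could be given.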
